A study of Homo sapiens with 6 samples.

Results

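The 8 genes described here are paralogs of cytosolic ribosomal protein genes, found by symbol among the 58870 genes of the count table: RPL22L1, RPL39L, RPL36AL, RPL26L1, RPL7L1, RPS27L, RPL3L and RPL10L. Each was set beside its parent gene, respectively RPL22, RPL39, RPL36A, RPL26, RPL7, RPS27, RPL3 and RPL10. The samples were HEK-293T cells, a human embryonic kidney line that carries the SV40 large T antigen, grown in DMEM at 37 degrees. The WT group (genotype Thumpd+/+ in the labels) had 3 libraries, and the THUMPD1 KO group (Thumpd-/-), a line made with CRISPR-Cas9 and grown from a single sorted cell, also had 3. Because the KO line is 1 clone, loss of THUMPD1 and other features of that clone cannot be told apart. Nothing in the labels says that the 3 libraries of a genotype came from separate cultures, so p values measure the spread between these libraries, which may be technical.

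A cytosolic ribosome holds one copy of most of its proteins, and in humans nearly every one of these proteins is encoded by a single expressed gene. A few have an expressed paralog whose product can take the place of the parent protein, and several of these paralogs are known for restricted expression, RPL39L and RPL10L in male germ cells and RPL3L in heart and skeletal muscle. THUMPD1 helps the acetyltransferase NAT10 to place N4-acetylcytidine in the tRNAs that carry Leu and Ser. The comparison asked whether the transcripts of these paralogs, relative to their parents, differed between cells with and without THUMPD1.

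Levels are counts-per-million values (CPM), each gene's RSEM expected count scaled to the library total. Totals lay between 32225646 and 44099898, so that 1 CPM stood for 32.2 to 44.1 read pairs, and a count of 3 for 0.0680 to 0.0931 CPM. The targeted gene, THUMPD1, averaged 80.9 ± 3.65 CPM in WT libraries and 11.04 ± 0.918 CPM in KO libraries (SD, n = 3 each; log2 fold change −2.87, SE 0.085, adjusted p = 3.17e-08, limma-voom). The kidney identity of the line was partial by its markers: of 10 kidney genes listed, 5 passed the expression filter, and UMOD, AQP2, CDH16 and SLC34A1, markers of mature tubules, had no count in any library. Of the 5 tested, PAX2 and LHX1 were higher in KO cells and EYA1 was lower (log2 fold changes 0.64, 0.59 and −0.46, adjusted p under 0.05 in limma-voom), or 3 of 5 against 26.7% of all genes tested. The summed level of the 10 was 43.4 to 43.96 CPM in WT and 39.6 to 44.3 CPM in KO libraries.

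Of the 8 paralogs, 6 passed the filter of at least 1 CPM in at least 3 libraries, and 3 of these 6 changed at an adjusted p under 0.05 in limma-voom. RPL22L1 and RPL7L1 were lower in THUMPD1 KO cells and RPL39L was higher. Over all 15088 genes tested the share called was 26.7%, 13.7% as higher and 13.0% as lower. None of the 8 parents was called, although RPL3 was in 7 of 18 other settings, RPL36A in 2 and RPL26 in 1. In 4 of the 6 tested paralogs the CPM of the genotypes did not overlap, as in 42.2% of all genes tested. By edgeR 1 paralog was higher and 1 lower, against 25.7% of all genes called, and DESeq2 called 3 paralogs, 1 higher and 2 lower, against 24.3% of all genes called and 13.2% called as lower. The median log2 fold change was 0.046 over the 6 paralogs tested and 0.016 over all genes tested, and the median size of the change, irrespective of sign, was 0.17 for the paralogs, 0.074 for the parents and 0.13 for all genes tested. With 6 paralogs tested, these counts describe the genes themselves and say nothing particular about the group.

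**Figure D1:**
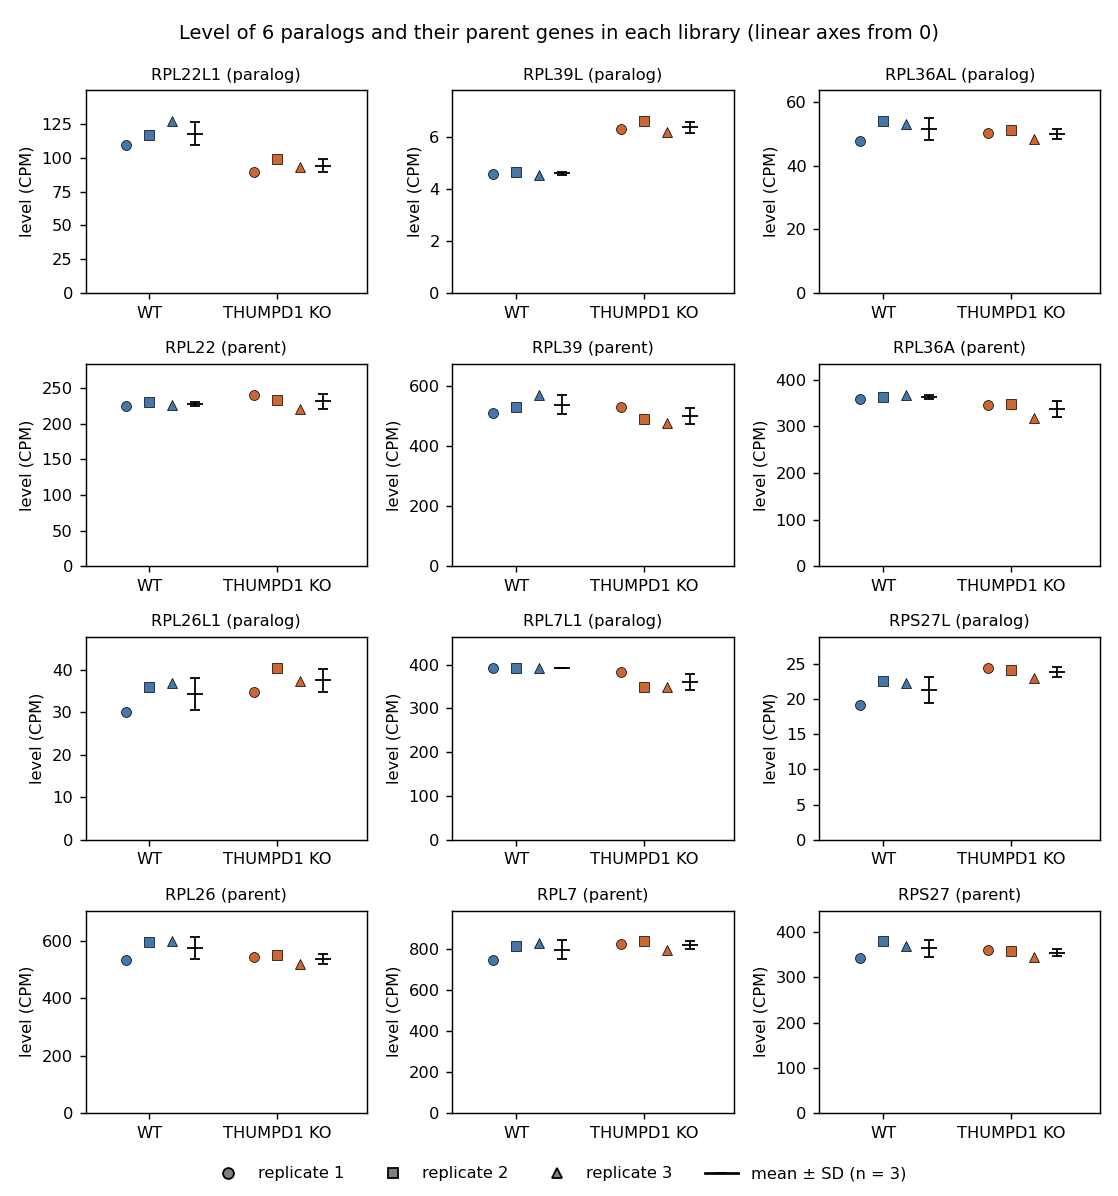
Level in CPM (vertical axes, linear from 0) of the 6 tested paralogs and their parents in the WT and THUMPD1 KO libraries, with replicate numbers as symbols and mean ± SD (n = 3) as bars. The KO libraries lie below every WT library for RPL22L1 (89.7 to 99.4 against 109.6 to 127 CPM) and above every WT library for RPL39L (6.21 to 6.62 against 4.56 to 4.67 CPM).

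RPL22L1 is the paralog of RPL22, a protein of the large subunit that binds RNA and is known to restrain expression of RPL22L1. RPL22L1 (ENSG00000163584.18) lies on chromosome 3 at 170864875 to 170870208, minus strand, in GRCh38. Its coding sequence matched that of RPL22 at 251 of 384 aligned positions (65.4%), and the longest run shared by their mRNAs was 17 bases.

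RPL22L1 stood at 109.6, 117 and 127 CPM in WT replicates 1, 2 and 3 and at 89.7, 99.4 and 93.4 CPM in KO replicates 1, 2 and 3. All 3 KO libraries were below all 3 WT libraries. The level fell from 118 ± 8.75 to 94.2 ± 4.89 CPM (SD, n = 3 each), which left 79.9% of the WT mean. The log2 fold change was −0.34 (SE 0.062, 95% confidence interval −0.47 to −0.20, adjusted p = 0.00292, limma-voom). RPL22L1 was called under all 18 other settings, with log2 fold changes between −0.41 and −0.28. Its counts were whole numbers in all 6 libraries, within a tolerance of 0.005, as they are where no read is divided between genes. No annotated gene overlaps it.

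RPL22 was not called. It stood at 227 ± 2.93 CPM in WT and 231 ± 10.5 CPM in KO libraries (SD, n = 3 each), with a log2 fold change of 0.02 (95% confidence interval −0.08 to 0.12, adjusted p = 0.769, limma-voom), and that sign turned under some settings. Reads of RPL22 could be shared more widely, since its annotated pseudogenes held counts equal to 13.8% of its own, and RNF207 overlaps it on the opposite strand. RNF207 fell (log2 fold change −0.91, adjusted p = 3.73e-04, limma-voom), and whether reads passed between them was not tested, since no source used here says whether strand entered the counting.

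RPL39L is the paralog of RPL39, a very small protein that lines the exit tunnel of the large subunit. RPL39L (ENSG00000163923.10) lies on chromosome 3 at 187120948 to 187180908, minus strand, and RPL39 on the X chromosome. Their coding sequences are equally long and match at 145 of 153 positions (94.8%), with a shared run of up to 67 bases between the mRNAs. Both are printed whole, from the GENCODE 44 transcripts, because reads of one can match the other over most of the coding part. The 8 bases that differ are in capitals.
RPL39L: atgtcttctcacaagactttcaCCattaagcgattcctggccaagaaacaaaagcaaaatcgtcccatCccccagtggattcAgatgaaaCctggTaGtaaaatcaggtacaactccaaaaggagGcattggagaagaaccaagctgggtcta
RPL39: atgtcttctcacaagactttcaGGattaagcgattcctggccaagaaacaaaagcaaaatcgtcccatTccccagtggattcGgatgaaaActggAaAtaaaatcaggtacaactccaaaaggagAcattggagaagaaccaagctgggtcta

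RPL39L stood at 4.61, 4.67 and 4.56 CPM in WT replicates 1, 2 and 3 and at 6.33, 6.62 and 6.21 CPM in KO replicates 1, 2 and 3. The genotypes did not overlap, and the spread within each was small beside the gap. The level rose from 4.61 ± 0.0565 to 6.39 ± 0.213 CPM (SD, n = 3 each), or 138% of WT, with a log2 fold change of 0.43 (SE 0.10, 95% confidence interval 0.20 to 0.65, adjusted p = 0.0116, limma-voom). RPL39L was called in 17 of 18 other settings, and without KO replicate 2 the log2 fold change was 0.38 at an adjusted p of 0.0542 (limma-voom). These levels rest on 170 to 292 expected counts per library, which were whole numbers in 3 of 6 libraries. The others were 183.01, 169.98 and 292.01.

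RPL39 was at 537 ± 31.1 CPM in WT and 499.5 ± 27.0 CPM in KO libraries (SD, n = 3 each). Its log2 fold change was −0.08 (95% confidence interval −0.20 to 0.03, adjusted p = 0.240, limma-voom), and the genotypes overlapped. For the germ cell setting in which RPL39L and RPL10L are known, 10 testis germ cell markers were examined: all 10 were below 1 CPM in every library, 5 had no count at all, and their summed level was 0.456 to 0.783 CPM in WT and 0.507 to 0.590 CPM in KO libraries.

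RPL7L1 is related to RPL7, a large-subunit protein, and is known to belong to the machinery that assembles the large subunit in the nucleolus. RPL7L1 (ENSG00000146223.14, chromosome 6, 42879616 to 42889925, plus strand) shared the fewest coding bases with its parent, 54.2% of aligned positions, with no common run in the mRNAs above 11 bases. It held the most counts of the 8 paralogs. RPL7L1 stood at 392.3, 391.6 and 391.7 CPM in WT replicates 1, 2 and 3 and at 383, 349 and 349.5 CPM in KO replicates 1, 2 and 3. KO replicate 1 was close to the WT libraries and the other two lay lower.

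The fall of RPL7L1 was small: from 392 ± 0.373 to 360.4 ± 19.4 CPM (SD, n = 3 each), or 92.0% of WT, with a log2 fold change of −0.16 (SE 0.044, 95% confidence interval −0.25 to −0.06, adjusted p = 0.0219, limma-voom). It was called in 12 of 18 other settings. The adjusted p was 0.0687 with library sizes alone and 0.0534 in the edgeR quasi-likelihood test. When 1 library was left out of limma-voom, it was 0.0542 for WT replicate 2, 0.0652 for WT replicate 3, 0.101 for KO replicate 2 and 0.0941 for KO replicate 3. Its parent RPL7 was at 795 ± 46.3 CPM in WT and 817 ± 21.0 CPM in KO libraries (SD, n = 3 each; log2 fold change 0.06, adjusted p = 0.325, limma-voom).

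RPS27L is the only small-subunit paralog of the 8 and a known transcriptional target of p53. RPS27L (ENSG00000185088.14, chromosome 15, 63125872 to 63158021, minus strand) stood at 19.1, 22.6 and 22.2 CPM in WT replicates 1, 2 and 3 and at 24.4, 24.1 and 23.0 CPM in KO replicates 1, 2 and 3. The 3 KO libraries were above the 3 WT libraries, by a narrow gap between WT replicate 2 and KO replicate 3. The log2 fold change was 0.18 (SE 0.082, 95% confidence interval 0.0045 to 0.36) and the adjusted p 0.119 (limma-voom), so RPS27L did not pass the test, nor did it under any of the 18 other settings. Without WT replicate 1 the log2 fold change was 0.08. LACTB overlaps it on the opposite strand and had a log2 fold change of −0.13 (adjusted p = 0.365, limma-voom). RPS27 was at 364 ± 18.4 CPM in WT and 354 ± 7.84 CPM in KO libraries (SD, n = 3 each; adjusted p = 0.410, limma-voom).

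Of 15 other p53 targets, all tested, 6 rose and 1 fell in limma-voom, against 13.7% and 13.0% of all genes tested, and 7 rose and 3 fell with the replicate number as a block, against 18.4% and 16.7%. In edgeR 5 rose and 2 fell, against 11.8% and 13.8%. CDKN1A, which encodes the cell cycle inhibitor p21, rose most clearly, from 7.66 ± 0.659 to 16.4 ± 1.28 CPM (SD, n = 3 each; log2 fold change 1.10, adjusted p = 2.34e-05, limma-voom). ZMAT3, an RNA-binding protein gene, rose by 0.43, TP53INP1 by 0.78, AEN, an exonuclease gene, by 0.25 and MDM2, the ubiquitin ligase for p53, by 0.16 on the log2 scale. The member that fell, named after its values were seen, was FDXR, by 0.26 on the log2 scale. SESN2, also named after its values were seen, had the lowest log2 fold change of the list, −0.63, and did not pass the test (adjusted p = 0.0533, limma-voom). SESN2 stood at 122.3, 58.7 and 69.1 CPM in WT replicates 1, 2 and 3 and at 46.5 to 58.5 CPM in KO libraries. WT replicate 1 was thus well above every other library. The cells carry the large T antigen, and whether p53 activity differed between the genotypes was not tested.

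RPL26L1 and RPL36AL are paralogs of RPL26 and RPL36A, both large-subunit proteins, and neither passed the test. RPL26L1 (ENSG00000037241.7, chromosome 5, 172958729 to 172969771, plus strand) stood at 30.0, 36.0 and 36.9 CPM in WT replicates 1, 2 and 3 and at 34.8, 40.4 and 37.2 CPM in KO replicates 1, 2 and 3. The genotypes overlapped, and the log2 fold change was 0.14 (95% confidence interval −0.07 to 0.34, adjusted p = 0.301, limma-voom). Leaving out WT replicate 1 gave 0.03, KO replicate 2 gave 0.07, and WT replicate 3 or KO replicate 1 gave 0.20, none past the test. The antisense gene RPL26L1-AS1, below the filter, overlaps it. RPL36AL (ENSG00000165502.6, chromosome 14, 49618530 to 49620626, minus strand) stood at 47.7, 54.1 and 53.1 CPM in WT replicates 1, 2 and 3 and at 50.4, 51.3 and 48.4 CPM in KO replicates 1, 2 and 3. These groups overlapped as well, with a log2 fold change of −0.04 (95% confidence interval −0.18 to 0.09, adjusted p = 0.629, limma-voom), or −0.11 without WT replicate 1 and −0.0048 without WT replicate 2.

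The parents of this pair were RPL26, with 574 ± 37.3 CPM in WT and 536 ± 16.6 CPM in KO libraries (SD, n = 3 each; log2 fold change −0.08, adjusted p = 0.226, limma-voom), and RPL36A, with 363 ± 4.94 and 338 ± 17.5 CPM (SD, n = 3 each; log2 fold change −0.12, adjusted p = 0.0810, limma-voom). RPL26 was called without WT replicate 1 (adjusted p = 0.0304, limma-voom), and RPL36A with GC content and length trends removed (0.0174, or 0.00782 with the replicate block, limma-voom). RPL36A had the largest pseudogene counts of any parent relative to its own, 37.9%. GLA overlaps RPL36A on the opposite strand and fell (log2 fold change −0.50, adjusted p = 2.22e-05, limma-voom). RPL36A-HNRNPH2 overlaps RPL36A on the same strand and was not called (log2 fold change −0.29, adjusted p = 0.225, limma-voom). The part of reads from these genes and pseudogenes in the value of RPL36A was not tested.

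RPL3L and RPL10L were at the edge of detection. RPL3L (ENSG00000140986.8, chromosome 16, 1943974 to 1957606, minus strand) had 7, 10 and 6 counts in WT replicates 1, 2 and 3 and 5, 7 and 10 counts in KO replicates 1, 2 and 3. The groups overlapped, and without the filter its log2 fold change was −0.19 (SE 0.44, adjusted p = 0.821, limma-voom). RPL10L (ENSG00000165496.4, chromosome 14, 46651010 to 46651781, minus strand), a gene without introns, had 2, 3 and 2 counts in WT replicates 1, 2 and 3 and 2, 1 and 0 counts in KO replicates 1, 2 and 3. With 3 counts or fewer in every library no fold is given, and a difference was not detectable at this depth.

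The parents of these 2 were abundant. RPL10 was at 1013 ± 9.33 CPM in WT and 974 ± 64.7 CPM in KO libraries (SD, n = 3 each; adjusted p = 0.616, limma-voom). RPL3 was at 1151 ± 25.9 and 1034 ± 92.2 CPM (SD, n = 3 each), with a log2 fold change of −0.14 and an adjusted p of 0.0658 (limma-voom). It was called in 7 of 18 other settings, among them the replicate block (adjusted p = 0.0133) and TMM (0.0340) in limma-voom, edgeR (0.0329), DESeq2 (0.00687) and limma-voom without KO replicate 1 (0.0140). RPL3 lies on chromosome 22, where the median log2 fold change over 374 tested genes was −0.34, and the part of that in its value was not tested. Of 10 striated muscle markers, the setting known for RPL3L, 8 were below 1 CPM in every library and 3 had no count in any. Of the 2 tested, ACTN2 was not called. TTN stood at 0.855, 0.689 and 0.671 CPM in WT replicates 1, 2 and 3 and at 1.97, 1.25 and 1.40 CPM in KO replicates 1, 2 and 3. TTN thus passed the filter only through the KO libraries. Its call as higher (log2 fold change 0.84, adjusted p = 0.0138, limma-voom) is therefore not read as a result. The summed level of the 10 was 9.75 to 10.6 CPM in WT and 10.2 to 10.9 CPM in KO libraries, of which ACTN2 made up most.

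**Figure D2:**
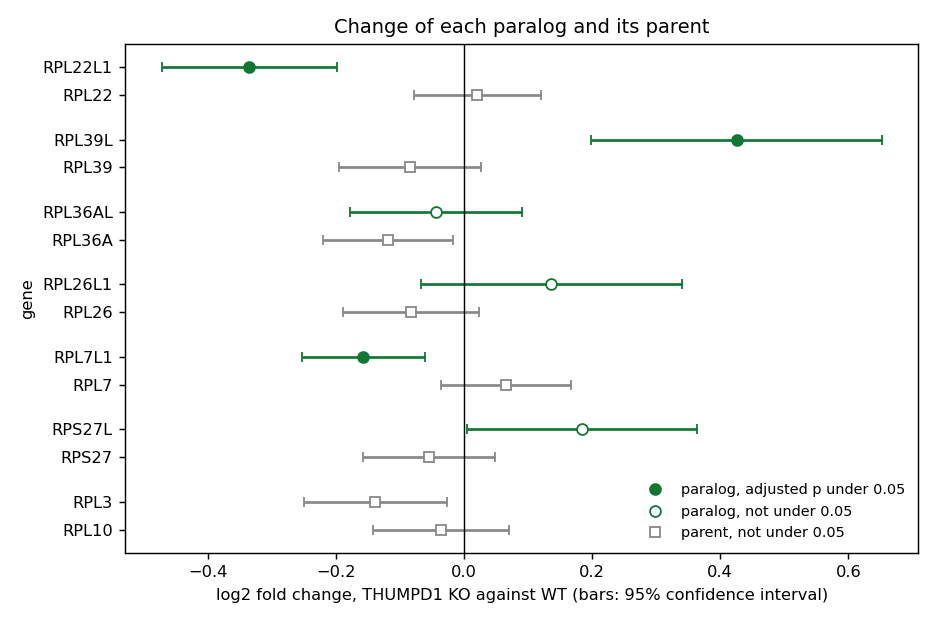
Log2 fold change of THUMPD1 KO against WT (horizontal axis) with its 95% confidence interval for each tested paralog and each parent (limma-voom). The 3 filled symbols, adjusted p under 0.05, are RPL22L1 at −0.34, RPL39L at 0.43 and RPL7L1 at −0.16, and no parent is filled.

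The change of a paralog relative to its parent was measured within each library as a log2 ratio of quantile-normalized levels, for the 6 pairs with both genes tested. With 3 against 3 libraries the smallest p of the exact permutation test is 0.1, so no single pair could reach 0.05. A sign-flip test of the differences paired by replicate number could not either, as its smallest p is 0.25. The ratio of RPL22L1 to RPL22 was 21.9% lower in KO libraries (log2 difference −0.36, SE 0.091, exact permutation p = 0.1, sign-flip p = 0.25). For RPL7L1 to RPL7 the ratio was 14.3% lower (log2 difference −0.22, SE 0.048, exact permutation p = 0.1).

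The ratio went the other way in a further 3 pairs. RPL39L to RPL39 was 41.9% higher in KO libraries (log2 difference 0.50, SE 0.094, exact permutation p = 0.1). RPS27L to RPS27 was 17.5% higher (log2 difference 0.23, SE 0.057, exact permutation p = 0.1), and RPL26L1 to RPL26 was 15.9% higher (log2 difference 0.21, SE 0.090, exact permutation p = 0.1). The genotypes did not overlap in these pairs, but for RPL26L1 the gap was 0.0019 on the log2 scale. With pseudogene counts added the exact permutation p for RPL26L1 to RPL26 was 0.2. How often the ratios of other gene pairs separate was not measured. The CPM of single genes did not overlap in 42.2% of all genes tested. For RPL36AL to RPL36A the groups overlapped (log2 difference 0.07, SE 0.064, exact permutation p = 0.5).

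**Figure D3:**
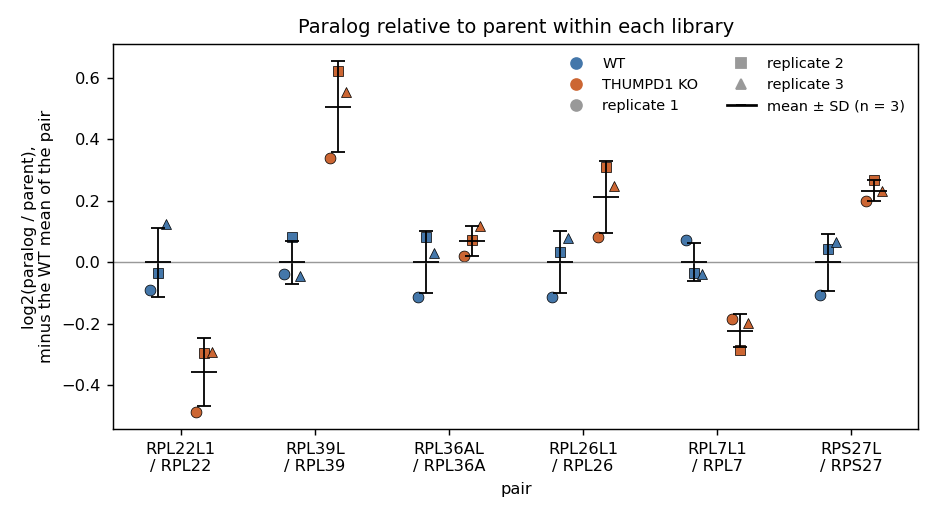
Log2 ratio of paralog to parent in each library, minus the WT mean of the pair (vertical axis), for the 6 tested pairs, with symbols for replicate numbers and mean ± SD (n = 3) as bars. KO libraries lie below WT for RPL22L1 and RPL7L1 (mean differences −0.36 and −0.22) and above WT for RPL39L, RPS27L and RPL26L1 (0.50, 0.23 and 0.21). How often the ratios of other gene pairs separate was not measured.

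In raw terms, RPL22L1 had 487, 508 and 563 counts per 1000 counts of RPL22 in WT replicates 1, 2 and 3 and 373, 426 and 425 in KO replicates 1, 2 and 3. RPL39L had 7.98 to 9.03 counts per 1000 of RPL39 in WT and 12.0 to 13.5 in KO libraries. RPL39L had the fewest counts relative to its parent of the 6 tested paralogs. RPL7L1 had 473 to 528 in WT and 418 to 465 in KO libraries.

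Levels of different genes can be compared only per length. Per kilobase of the representative transcript, RPL22L1 made up 36.0 ± 1.74% of the RPL22L1 and RPL22 signal in WT and 30.6 ± 1.61% in KO libraries (SD, n = 3 each). The share over all 6 libraries was 13.0 to 14.6% for RPL36AL, 10.3 to 12.6% for RPL7L1, 3.97 to 5.10% for RPL26L1, 0.425 to 0.716% for RPL39L and 0.319 to 0.390% for RPS27L. RPL22L1 thus had the largest share of its pair under this length. The representative RPS27L transcript is 6110 bases long and that of RPS27 352 bases, and per kilobase of coding sequence the share of RPS27L was 5.27 to 6.36% and that of RPL7L1 28.9 to 33.9%.

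The canonical genes gave the background of the pathway. Of 79 canonical cytosolic ribosomal protein genes, all tested, 1 rose and 4 fell in limma-voom, or 6.33% against 26.7% of all genes tested, with a median log2 fold change of −0.01. The gene that rose was RPS26 (0.16), and those that fell were RPS15A (by 0.44), RPS2 (by 0.24), RPS12 (by 0.16) and RPS21 (by 0.16), all on the log2 scale and all proteins of the small subunit. RPS15A and RPS2 lie on chromosome 16, where the tested genes within 2 Mb had a median log2 fold change of −0.40 in both cases (23 genes near RPS15A, 139 near RPS2), and the part of that in their values was not tested. In 77 of the 79 the log2 fold change was under 0.2 in size. With the replicate block 4 rose and 5 fell, against 35.1% of all genes called. Leaving out KO replicate 1 gave 12 called genes, WT replicate 1 gave 8, WT replicate 3 gave 2, and WT replicate 2, KO replicate 2 or KO replicate 3 gave 3, with 17.6 to 28.1% of all genes called in these 6 fits.

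Many mRNAs of the translation machinery begin with a C followed by a run of pyrimidines, a motif (5′ TOP) through which their translation is regulated. Windows of 30 bases, from 10 before to 20 from the annotated start, were searched on the gene's strand for a C followed by at least 4 bases that are C or T. The run was present for 7 of 7 parents and 59 of 63 canonical genes (93.7%) with an entry, and for 2 of 6 paralogs, RPL22L1 and RPL36AL. Over 27305 genes with an entry, 43.4% had one. Of the 2 paralogs with the run, RPL22L1 fell and RPL36AL did not pass the test. No match says only that these letters are not in this window. Windows of the tested paralogs with an entry and of 3 parents are shown. Each of the 7 parents searched, but few of the paralogs, had a window with the run. RPL10 also had a start without the run. RPL26L1 had another start, likewise without the run, that is not shown. The windows are from RefSeq on GRCh38.p14, and capitals mark the longest run.
RPL22L1 (chr3:170870176-170870205, minus strand): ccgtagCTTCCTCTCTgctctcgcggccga
RPL36AL (chr14:49620607-49620636, minus strand): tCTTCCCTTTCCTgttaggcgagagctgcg
RPL26L1 (chr5:172958719-172958748, plus strand): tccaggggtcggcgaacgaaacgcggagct
RPL7L1 (chr6:42879606-42879635, plus strand): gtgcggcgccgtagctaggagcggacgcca
RPS27L (chr15:63157458-63157487, minus strand): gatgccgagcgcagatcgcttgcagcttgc
RPL22 (chr1:6199576-6199605, minus strand): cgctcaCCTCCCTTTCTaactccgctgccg
RPL39 (chrX:119791611-119791640, minus strand): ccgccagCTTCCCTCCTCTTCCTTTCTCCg
RPS27 (chr1:153990752-153990781, plus strand): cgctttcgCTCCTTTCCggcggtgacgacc

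The U- or A-rich Leu codons UUA, UUG, CUU and CUA, which the study set against the other Leu codons, made up 9 of 10 Leu codons in RPL22L1 and 9 of 11 in RPL22. They made up 7 of 8 in RPS27L but 3 of 7 in RPS27, and 15 of 32 in RPL7L1 but 15 of 21 in RPL7. RPL39L and RPL39 had 1 of 3 each. The median was 38.5% over 19455 genes with at least 5 Leu codons and 42.6% over 72 canonical ribosomal protein genes. Of the 3 paralogs that changed, RPL22L1 had a high share of these codons, RPL7L1 a lower share than its parent, and RPL39L too few Leu codons to compare.

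The neighbours of the called paralogs had medians near 0. Within 2 Mb of RPL22L1 the median log2 fold change of 21 other tested genes was 0.04, for 19 genes near RPL39L it was 0.05, and for 58 genes near RPL7L1 it was 0.03. RPL3L, below the filter, lies in a stretch of chromosome 16 where 140 tested neighbours had a median of −0.40. The genes whose levels were most like that of RPL22L1 over the 6 libraries were SSBP2 (Pearson r = 0.998), RIBC2 (0.997) and HSD3B7 (0.995). For RPL39L they were ZNF37A, AC012510.1 and KARS1 (r = 0.999 each). The points are the same 6 libraries in 2 groups, so these values are a description only.

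**Figure D4:**
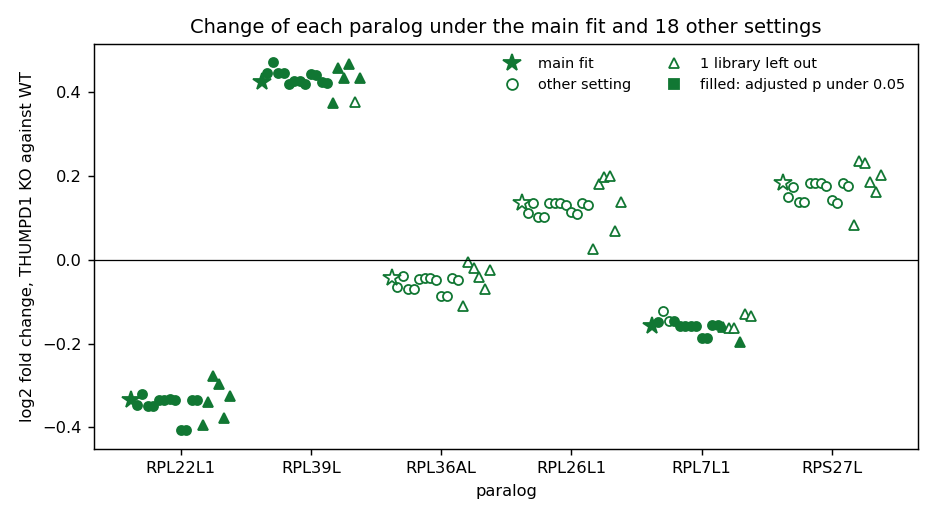
Log2 fold change of THUMPD1 KO against WT (vertical axis) of each tested paralog in the main fit (star) and 18 other settings (circles, or triangles where 1 library was left out), filled where adjusted p was under 0.05. RPL22L1 is filled in all 18 other settings, RPL39L in 17, RPL7L1 in 12, and RPS27L in none.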

How the data were processed

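The paralogs were measured in 6 ribosomal RNA-depleted, stranded, paired-end RNA-seq libraries of HEK-293T cells. The deposited values are RSEM expected counts per gene, unscaled, from reads that the authors had mapped by STAR on GRCh38. Versions and the strand setting are not given in the sources used here. RSEM divides reads that match several genes. Genes, transcripts and positions were taken from GENCODE 44 (99.4% of IDs found), whereas the study names a later release.

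Groups came from the labels. As in the study, counts were filtered (at least 1 CPM, here in at least 3 libraries), put through quantile normalization and limma-voom (limma 3.58.1, R 4.3.3), with no term but genotype. All tests were two-sided, with Benjamini-Hochberg adjustment over 15088 genes and a threshold of 0.05. Ratios were tested by exact permutation over 20 groupings and, as an alternative, by 8 sign flips of the differences paired by replicate number. Shares used the representative transcript. The main limma-voom fit and the edgeR and DESeq2 fits were tested on simulated counts, and the other steps were not.

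Genes named were the paralogs, their parents, THUMPD1, at most 5 called canonical genes and p53 targets with the smallest adjusted p, tested genes overlapping a paralog, and the 3 genes most like each of the 2 paralogs with the smallest adjusted p. RNF207, GLA, RPL36A-HNRNPH2, FDXR, SESN2, RPL26L1-AS1 and the kidney and muscle markers were named after their values were seen. The members and lists were chosen with earlier results of these data known.

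The labels do not say what replicate numbers mark. Deviations from the genotype means correlated at 0.290, 0.278 and 0.153 for numbers 1, 2 and 3 over 13640 genes with at least 50 counts in every library, and at −0.303 to 0.0933 for different numbers, so the numbers were taken to pair libraries and a block on the number was an alternative. Others were TMM, library sizes alone, edgeR 4.0.16 and DESeq2 1.42.0 on rounded counts, other filters, removal of trends along GC content and length, addition of 245 pseudogenes, and each library left out. Coding length, and pseudogenes with the block, were added after seeing the data.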

Additional observations from a re-analysis of the deposited data

How the results depend on the processing

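No direction of the 6 tested paralogs or their ratios turned under any setting tried; RPL3L and RPL10L were not part of this. Depth limits RPL3L and RPL10L, and 3 libraries per genotype limit every ratio. RPL7L1 lost its call with library sizes alone (log2 fold change −0.12) and in edgeR (−0.15). Leaving out 1 library gave −0.20 to −0.13 for RPL7L1 and 0.38 to 0.47 for RPL39L. The cause was not tested. The uncalled RPL22 turned with TMM (−0.00011), with GC content and length trends removed (−0.0464, and −0.0465 with the replicate block), and within −0.00579 to 0.0606 when 1 library was left out, where RPL10 spanned −0.0818 to 0.00753.

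The count of paralogs called was 1 at an adjusted p under 0.01 (0 higher, 1 lower), against 13.8% of all genes. Those lower numbered 1 with library sizes alone, against 11.4% of all genes, and 1 in edgeR, against 13.8%. With 1 library left out 1 to 3 paralogs were called (0 to 1 higher, 1 to 2 lower), against 17.6 to 28.1% of all genes. The replicate block changed no call of a paralog. Among parents, RPL3 was called with it and in 6 other settings, RPL36A in 2 and RPL26 in 1. Canonical genes called, each beside the share of all genes called, were 9 in DESeq2 (8 lower; 24.3%), 9 with the replicate block (4 higher; 35.1%), 10 with GC content and length trends removed (6 higher; 29.3%), 12 with these and the replicate block (6 higher; 36.9%), 9 with pseudogenes and the replicate block (4 higher; 35.1%), and 2 at an adjusted p under 0.01 (0 higher, 2 lower; 13.8%). Those higher numbered 0 in edgeR (11.8% of all genes) and 2 without the CPM filter (5.0%). With 1 library left out 2 to 12 were called (0 to 1 higher, 2 to 12 lower; 17.6 to 28.1%).

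Shares of the pair depend on the length used. With the longest transcript the mean over 6 libraries was 35.6% for RPL22L1, 2.66% for RPL39L, 32.5% for RPL36AL, 8.04% for RPL26L1, 13.7% for RPL7L1 and 0.639% for RPS27L. With coding length it was 1.06% for RPL39L, 12.7% for RPL36AL, 6.08% for RPL26L1, 31.2% for RPL7L1 and 5.91% for RPS27L. Pseudogene counts gave 30.5% for RPL22L1 and 10.6% for RPL36AL.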
